A study of Mus musculus with 6 samples.

Results

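Genes of cholesterol and fatty acid synthesis were followed in bone marrow RNA of mice that model multiple myeloma, in which antibody-secreting plasma cells turn cancerous. The set was a list of 38 gene symbols, and 37 of them had a row among the 17173 genes of the authors' table. They comprise 17 genes of the sterol pathway from acetyl-CoA to cholesterol, 10 genes of fatty acid synthesis, elongation and desaturation, and 10 genes that sense, export or esterify sterols. The symbol without a row was Msmo1. Its older symbol Sc4mol has a row, which is given beside the sterol genes and not counted among them. The 6 libraries carry a single source name, VkCHE mice, and bone marrow as tissue, and their genotype is control in 3 libraries and Che-1 silencing in 3. They are called the control libraries and the silencing-labelled libraries below. The sources used here do not give what drives the silencing, the strain, the age or whether each library came from its own mouse. The p-values therefore measure only how far these libraries spread, and that spread may be technical.

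Cholesterol is built in the cytosol and endoplasmic reticulum from acetyl-CoA. The mevalonate steps end in farnesyl diphosphate, which squalene synthase and a series of ring-forming, demethylating and reducing enzymes turn into cholesterol. Fatty acids come from the same acetyl-CoA, which citrate lyase supplies, and are lengthened and desaturated in the endoplasmic reticulum. The transcription factors SREBP-1 and SREBP-2, encoded by Srebf1 and Srebf2, switch on these enzymes. SCAP carries the SREBPs to the Golgi for cleavage when membrane sterol is low, and the INSIG proteins hold them back when it is high. When oxysterols accumulate, the liver X receptors, encoded by Nr1h2 and Nr1h3, switch on sterol export through ABCA1 and ABCG1. Dividing cells need sterol and fatty acids for new membrane, and macrophages depend on export to unload the lipid of cells they have eaten.

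Levels are given as normalized counts, which are gene reads divided by a factor from synthetic ERCC spike-in RNAs. Differences are log2(normalized count + 1) in the silencing-labelled libraries minus control. They are stated per spike-in RNA (the spike-in scale) and after the median gene of every library was set equal (the relative scale). The median difference over the 14604 genes tested was 1.54 on the spike-in scale, so a member near 1.54 moved with the typical gene. The median gene lay at 7.89 to 8.60 log2 units in the control libraries and at 9.10 to 10.38 in the silencing-labelled libraries (p = 0.10 in an exact two-sided permutation test, its floor for 3 against 3). Libraries held 11317166 to 24899535 recovered gene reads and 228087 to 1149392 spike-in reads. Aatf, which encodes Che-1, goes against its label. It stood at 896, 396 and 421 normalized counts in the control libraries and at 1986, 3808 and 1223 in the silencing-labelled libraries, and no control library reached the lowest of these. Its difference was 1.98 on the spike-in scale (SE 0.57, limma adjusted p = 0.00214), and 0.45 on the relative scale (SE 0.19, limma adjusted p = 0.143), where the groups overlapped. Every direction below is therefore that of the labels. Uty, Kdm5d, Eif2s3y and Ddx3y, all on the Y chromosome, had 1044 to 4151 reads in each control library and 0 in each of the others. In the authors' deposited table the mean of Xist was 5.64 for control and 68685 for the other group. Group and sex therefore cannot be told apart, also for Nsdhl and Ebp, the members on the X chromosome. In whole marrow, fewer cells of a type and less RNA per cell cannot be told apart either.

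All 17 sterol pathway genes rose on the spike-in scale, 8 of the 10 fatty acid genes rose, and 9 of the 10 regulator and export genes rose. These counts stand beside a background of 66.7% of all tested genes that rose at a limma adjusted p of at most 0.05, and 0 of the 37 genes fell beside 0.746% of all. All 3 silencing-labelled libraries lay above all 3 control libraries in 16, 7 and 9 genes of these roles, beside 68% of all genes, and below them in 0, beside 0.438%. The spike-in difference had a median of 2.19 for the sterol genes, 1.47 for the fatty acid genes and 1.66 for the regulators. On the relative scale the medians were 0.66, -0.06 and 0.13, beside 0.01 over all genes tested. No member passed the test on the relative scale, where 0% of all genes were called higher and 0.0274% lower at the adjusted threshold in limma. At an unadjusted p under 0.05 on that scale, 9 sterol genes, 0 fatty acid genes and 2 regulators were higher, beside 17.8% of all genes, and 1 regulator was lower, beside 17.3%. DESeq2 called 9 sterol genes higher on the relative scale, 0 fatty acid genes in either direction, and 1 regulator in each direction, beside 15% of all genes higher and 12.2% lower. In edgeR the count for members was 0.

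**Figure D1:**
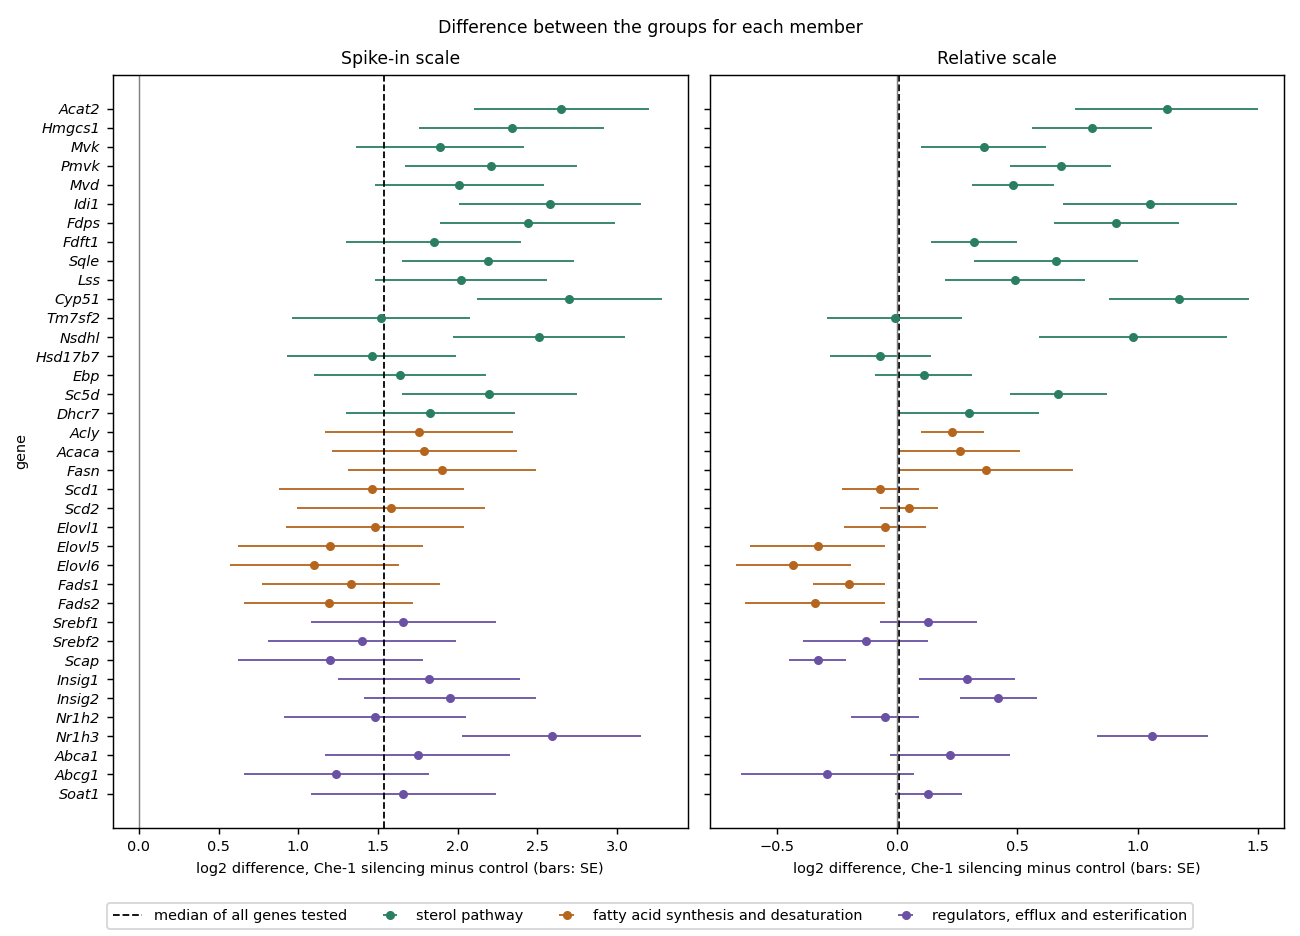
Log2 difference of the 37 genes, silencing-labelled libraries minus control, on the spike-in scale (left) and on the relative scale (right). Points are limma estimates over 3 against 3 libraries, bars are SE, colours mark the 3 roles, and the dashed line marks the median of all 14604 genes, at 1.54 on the left and 0.01 on the right. Sterol genes lie mostly to the right of the line, with a relative median of 0.66, and fatty acid genes lie on both sides of it.

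The spike-in calls rest on a spread that genes of similar level share. With each gene's own variance, 0 members and 0 of all genes rose. Calls over all genes also thinned out without control replicate 2 or 3, or without Che-1 silencing replicate 1 or 2. Without control replicate 2, 11 sterol genes, 0 fatty acid genes and 2 regulators rose, beside 22% of all genes. Without control replicate 3 the counts were 12, 0 and 2, beside 24.1%. Without Che-1 silencing replicate 1 they were 14, 0 and 3, beside 38.7%, and without replicate 2 of that label they were 14, 1 and 4, beside 41.9%. In the authors' deposited table, 0 of the 37 members had an adjusted p of at most 0.05. Their adjusted p ran from 0.186 to 0.367 and their log2 values from 1.10 to 2.94. In that deposited table of the authors, an unadjusted p under 0.05 was listed for 16 members, beside 26.9% of all its genes with a p.

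The first steps of the sterol pathway run from acetyl-CoA to farnesyl diphosphate, and their 7 genes had a median relative difference of 0.81. Acat2, the cytosolic thiolase that joins acetyl-CoA units, had 283, 146 and 176 normalized counts in control replicates 1 to 3. It stood at 1691, 2523 and 429 in Che-1 silencing replicates 1 to 3. The groups did not overlap, and replicate 3 of the silencing label lay far below the other two. The means were 202 ± 72.1 (SD, n = 3) and 1548 ± 1055 (SD, n = 3), and Acat2 rose by 2.65 on the spike-in scale (SE 0.55, limma adjusted p = 2.95e-05). Its relative difference was 1.12 (SE 0.38, limma adjusted p = 0.103). Acat2 shares stretches with Acat3 and Tcp1 at 95% identity or more over the aligned stretch, the longest of 1477 bases. Reads of Acat2 and Acat3 may thus have been split or left out. Acat3 had the same relative difference of 1.12.

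Hmgcs1, the cytosolic HMG-CoA synthase, stood at 913, 643 and 736 normalized counts in the control libraries and at 4492, 7404 and 1689 in the silencing-labelled libraries. The lowest of the latter exceeded the highest control. The means were 764 ± 137 and 4528 ± 2858 (SD, n = 3 each). Hmgcs1 rose by 2.34 on the spike-in scale (SE 0.58, limma adjusted p = 0.000519), and the relative difference was 0.81 (SE 0.25, limma adjusted p = 0.0935).

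The mevalonate kinases and the decarboxylase act next. Pmvk, phosphomevalonate kinase, stood at 309, 174 and 177 normalized counts in control and at 1057, 1834 and 493 in the silencing-labelled libraries, without overlap. It rose by 2.21 on the spike-in scale (SE 0.54, limma adjusted p = 0.00046), with a relative difference of 0.68 (SE 0.21). Mevalonate kinase, encoded by Mvk, and mevalonate diphosphate decarboxylase, encoded by Mvd, were the least abundant of these transcripts, at means of 87.4 and 101 normalized counts in control. Mvk rose by 1.89 and Mvd by 2.01 on the spike-in scale, and their relative differences were 0.36 and 0.48.

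Idi1, the isopentenyl diphosphate isomerase, stood at 637, 309 and 329 normalized counts in control and at 3271, 4855 and 884 in the silencing-labelled libraries. Fdps, the farnesyl diphosphate synthase that bisphosphonate drugs inhibit, stood at 324, 189 and 201 in control and at 1617, 2180 and 566 in the others. In both genes the groups were apart, and Che-1 silencing replicate 3 was the lowest of its label. Idi1 rose by 2.58 (SE 0.57, limma adjusted p = 0.000101) and Fdps by 2.44 (SE 0.55, limma adjusted p = 0.000138) on the spike-in scale. Their relative differences were 1.05 (SE 0.36) and 0.91 (SE 0.26).

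The 10 genes from squalene to cholesterol had a lower median relative difference, 0.40, and a wider spread among neighbouring steps. Squalene synthase, encoded by Fdft1, rose by 1.85 on the spike-in scale, with a relative difference of 0.32. Sqle, the squalene epoxidase, stood at 359, 167 and 164 normalized counts in control and at 1307, 1832 and 390 in the silencing-labelled libraries. The highest control, at 359, lay just under the lowest silencing-labelled library, at 390. Sqle rose by 2.19 on the spike-in scale (SE 0.54, limma adjusted p = 0.000529), and its relative difference was 0.66 (SE 0.34, limma adjusted p = 0.208). Lanosterol synthase, encoded by Lss, forms the ring system, and it rose by 2.02 with a relative difference of 0.49.

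Cyp51, the lanosterol demethylase, had the largest relative difference of the 37 genes. It stood at 675, 396 and 485 normalized counts in control and at 4090, 6494 and 1359 in the silencing-labelled libraries. The lowest of these was above every control library. The means were 519 ± 143 and 3981 ± 2569 (SD, n = 3 each), and Cyp51 rose by 2.70 on the spike-in scale (SE 0.58, limma adjusted p = 5.63e-05). The relative difference was 1.17 (SE 0.29, limma adjusted p = 0.0768).

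The enzymes that follow Cyp51 differed among themselves. Nsdhl, a dehydrogenase of the demethylation complex, stood at 206, 137 and 139 normalized counts in control and at 1225, 1918 and 313 in the silencing-labelled libraries. It is X-linked and rose by 2.51 on the spike-in scale (SE 0.54, limma adjusted p = 6.49e-05), with a relative difference of 0.98 (SE 0.39). The row of Sc4mol, the methyl oxidase of the same complex, rose by 2.11 with a relative difference of 0.58 and was chosen after its values were seen. The third enzyme, Hsd17b7, stood at 169, 107 and 115 in control and at 408, 598 and 180 in the silencing-labelled libraries. These groups were apart by a small margin, between control replicate 1 and Che-1 silencing replicate 3. Hsd17b7 rose by 1.46 on the spike-in scale (SE 0.53, limma adjusted p = 0.012), close to the typical gene, and its relative difference was -0.07 (SE 0.21). The sterol reductase Tm7sf2 had the lowest counts of the set, at 52.7, 41.4 and 40.8 in control and 153, 226 and 62.9 in the others, and 45 reads in its shallowest library. It rose by 1.52 (SE 0.56, limma adjusted p = 0.0139), and its relative difference was -0.01 (SE 0.28).

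The last isomerase, Ebp, stood at 327, 221 and 203 normalized counts in control and at 693, 1013 and 637 in the silencing-labelled libraries. It is also X-linked and rose by 1.64 on the spike-in scale (SE 0.54, limma adjusted p = 0.00629), and its relative difference was 0.11 (SE 0.20). Ebp was the sterol gene in which Che-1 silencing replicate 3 was the highest of its label on the relative scale, 0.45 above the control mean, with replicates 1 and 2 at 0.03 and -0.15. Sc5d, the lathosterol desaturase, stood at 378, 242 and 246 normalized counts in control and at 1488, 2314 and 637 in the others, without overlap. Sc5d rose by 2.20 on the spike-in scale (SE 0.55, limma adjusted p = 0.000601), with a relative difference of 0.67 (SE 0.20). Dhcr7, the last reductase, was the sterol gene whose groups overlapped, at 255, 116 and 135 in control and 712, 1035 and 249 in the others. Its spike-in difference of 1.83 passed (limma adjusted p = 0.00234), and its relative difference was 0.30.

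Relative to the median gene, 15 of the 17 sterol genes had a positive difference, beside 50.8% of all genes, and 2 a negative one, beside 49.2%. Of the 17, 11 were in the top 25% of all relative differences. The libraries of the 2 groups did not overlap on that scale in 7 sterol genes, all higher in the silencing-labelled libraries, beside 20.5% of all genes. The 7 were Acat2, Hmgcs1, Pmvk, Mvd, Fdps, Cyp51 and Sc5d. The pattern was carried mainly by Che-1 silencing replicates 1 and 2. The median deviation of the sterol genes from the control mean was 0.84 and 0.83 in replicates 1 and 2 and 0.21 in replicate 3, with controls at 0.07, 0.00 and -0.05. Replicate 3 lay below both other libraries of its label in 16 of 17 sterol genes, beside 47.1% of all genes, and above all 3 controls in 8, beside 33.6%. Without Che-1 silencing replicate 3, 14 sterol genes were higher on the relative scale at the adjusted threshold and 0 lower, beside 27.8% and 25.2% of all genes. In that comparison Acat2 had a relative difference of 1.58 (limma adjusted p = 0.000863) and Cyp51 of 1.51 (limma adjusted p = 0.000496).

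**Figure D2:**
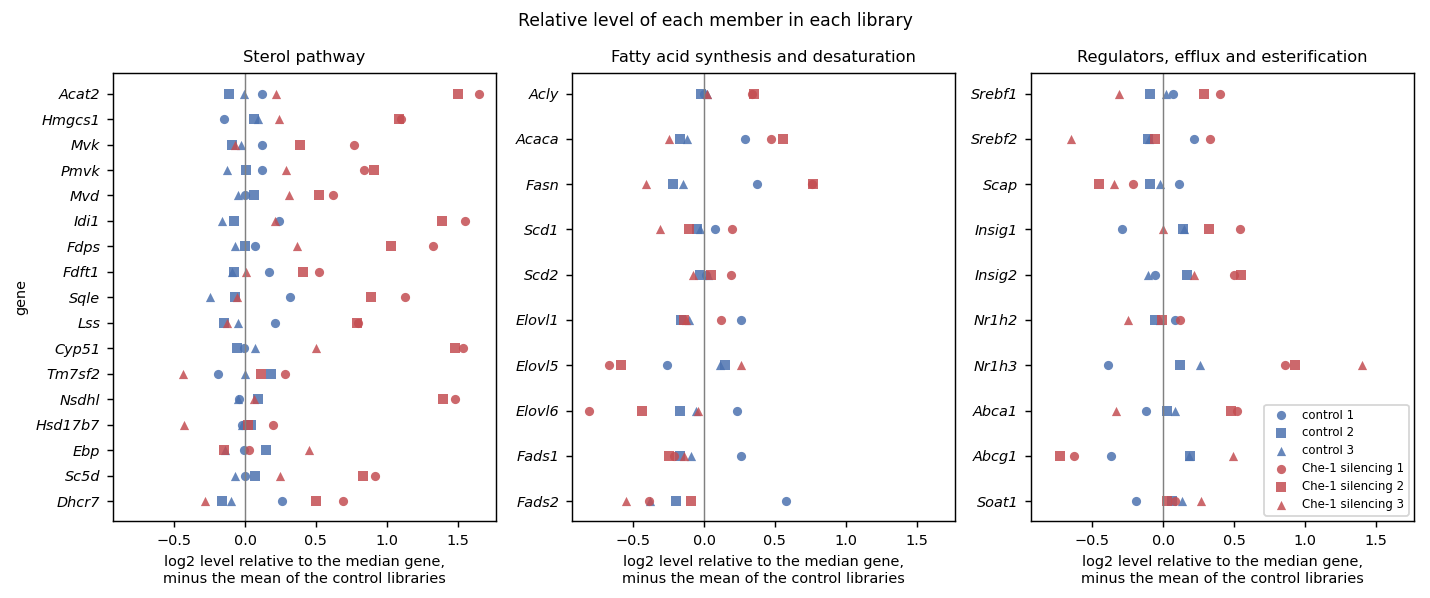
Level of each of the 37 genes in each library, in log2 units relative to the median gene of that library and minus the mean of the 3 control libraries. In most sterol genes Che-1 silencing replicates 1 and 2 lie well to the right of the controls, with medians of 0.84 and 0.83. Replicate 3, with a median of 0.21, lies between them and all controls in 7 of the 17 sterol genes and below the control mean in 6.

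Markers of dividing cells and of germinal centre B cells moved with the same libraries. Of 8 listed markers of dividing cells, 6 were tested and all 6 rose on the spike-in scale, beside 66.7% of all genes. Their median relative deviation was 1.96, 1.74 and 0.31 in Che-1 silencing replicates 1 to 3 and 0.71, -0.38 and -0.33 in the controls. Their summed level was 1343 to 4867 normalized counts in control and 4887 to 40073 in the others. The 6 germinal centre B cell markers deviated by 5.90, 5.72 and 1.23, and by -0.51, 0.33 and 0.23 in the controls. Their summed level was 609 to 701 normalized counts in control, against 89740, 127827 and 2976 in the others. Replicate 3 was thus the lowest of the silencing label, as in most sterol genes and in 47.1% of all genes. The sterol medians of replicates 1 and 2 were near equal, at 0.84 and 0.83. The part of dividing and germinal centre cells in the sterol result was not tested. Neutrophil markers deviated by -3.61, -1.69 and 0.57 and erythroid markers by -3.18, -1.97 and -0.88 in the same libraries. In control replicates 1 to 3 these stood at -0.85, 0.41 and 0.41 and at 1.10, -0.59 and -0.52. B cell markers deviated by 0.17, 0.30 and -0.20 (controls 0.18, -0.10 and -0.10). Plasma cell markers deviated by -0.46, -0.26 and 0.61 (controls -0.56, 0.29 and 0.26). T cell markers deviated by -0.32, -0.43 and -0.05 (controls -0.06, 0.00 and 0.04). Endothelial markers deviated by -2.79, -2.26 and -1.21 (controls -0.82, 0.44 and 0.39). The 7 listed adipocyte markers summed to 676 to 884 normalized counts in control and to 1240 to 1969 in the others, most of it from Pnpla2 and Fabp4. The defining adipocyte genes were near 0 outside control replicate 1. Adipoq stood at 42.1, 0 and 1.42 normalized counts in control and at 3.7, 0 and 11.6 in the others, Plin1 at 32.8, 0.47 and 0 and at 3.7, 0 and 2.57. Lep stood at 9.36 in control replicate 1 and had 0 reads in the other libraries.

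Promoter sequence was read for the sterol genes because they stood together on the relative scale. RefSeq windows of the 250 bases before the start site (GRCm38.p6) were found by symbol for 31 of the 38 listed genes, 15 of them sterol genes including Msmo1. SREBPs act on sterol promoters together with NF-Y, a factor that binds the CCAAT box. Each sequence below runs 5′ to 3′ on the strand of its gene. Capitals mark CCAAT on either strand, where the other strand reads as ATTGG, and TCACNCCAC, a form of the sterol response element. Hmgcs1 lies at chr13:119690101-119690350 on the plus strand and Idi1 at chr13:8885356-8885605 on the plus strand. Cyp51 lies at chr5:4104698-4104947 on the minus strand. They are shown for their large differences. Hsd17b7 (chr1:169969206-169969455, minus strand) and Acat2 (chr17:12960726-12960975, minus strand) are shown as a window with 3 boxes and a small difference and a window with none and a large difference.
Hmgcs1: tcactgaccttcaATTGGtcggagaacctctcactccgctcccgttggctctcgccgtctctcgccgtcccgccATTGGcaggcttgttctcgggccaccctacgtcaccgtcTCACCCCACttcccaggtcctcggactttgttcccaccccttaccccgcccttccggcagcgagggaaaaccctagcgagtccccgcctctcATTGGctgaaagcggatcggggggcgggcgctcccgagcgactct
Idi1: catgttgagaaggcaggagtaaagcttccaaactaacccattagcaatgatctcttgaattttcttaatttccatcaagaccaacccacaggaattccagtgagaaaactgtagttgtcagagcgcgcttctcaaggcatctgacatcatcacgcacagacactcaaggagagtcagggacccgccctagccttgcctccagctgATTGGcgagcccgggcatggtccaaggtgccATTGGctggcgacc
Cyp51: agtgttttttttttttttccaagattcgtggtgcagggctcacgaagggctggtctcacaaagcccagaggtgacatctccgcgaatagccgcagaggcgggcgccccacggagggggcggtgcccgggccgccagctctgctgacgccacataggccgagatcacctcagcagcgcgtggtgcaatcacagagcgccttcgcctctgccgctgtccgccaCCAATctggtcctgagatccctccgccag
Hsd17b7: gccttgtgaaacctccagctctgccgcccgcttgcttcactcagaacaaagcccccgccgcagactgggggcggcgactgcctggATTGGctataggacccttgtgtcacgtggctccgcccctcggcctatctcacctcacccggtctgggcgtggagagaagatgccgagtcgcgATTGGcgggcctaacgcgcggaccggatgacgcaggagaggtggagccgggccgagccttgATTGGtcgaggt
Acat2: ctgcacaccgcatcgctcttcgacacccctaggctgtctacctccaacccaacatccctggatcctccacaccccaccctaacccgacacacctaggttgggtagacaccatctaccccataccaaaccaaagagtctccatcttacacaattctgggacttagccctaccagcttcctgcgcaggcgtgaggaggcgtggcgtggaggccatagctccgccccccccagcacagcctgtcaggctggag

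CCAAT on either strand stood in at least 1 window of 14 of the 15 sterol genes with a window, or 93.3%, beside 37.5% of all 27025 RefSeq genes with a window and 40.2% of the 10702 tested genes with one. At least 2 copies in a single window were found for 9 of the 15, or 60%, beside 11.5% of all RefSeq genes and 14.6% of the tested ones. Some genes have several windows, and the 15 sterol genes have 18. The box was in 3 of 7 fatty acid genes, which have 8 windows, and in 5 of 9 regulators, which have 15. TCACNCCAC stood in 1 of the 15 sterol genes, Hmgcs1, beside 1.22% of all RefSeq genes and 1.24% of the tested ones. It stood in 0 of the fatty acid genes and regulators. CACGTG, the E-box, stood in 3 of the 15, beside 6.86% of all and 9.52% of the tested genes. No motif overlapped another in the windows shown. Hsd17b7 had 3 copies of the box and a relative difference of -0.07, while Acat2, with a relative difference of 1.12, had none in its window. These matches describe letters in a window and no binding was measured.

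Fatty acid genes, by contrast, lay on both sides of the typical gene, with relative differences from -0.43 to 0.37 and 0 of 10 in the top 25%. No gene of the 10 separated the groups on the relative scale. Of all genes, 20.5% lay apart above the controls on that scale and 19.7% below. Acly, the citrate lyase that makes cytosolic acetyl-CoA, stood at 3187, 1919 and 2209 normalized counts in control and at 8349, 13899 and 4562 in the silencing-labelled libraries. It rose by 1.76 on the spike-in scale (SE 0.59, limma adjusted p = 0.00651), with a relative difference of 0.23 (SE 0.13). Acaca, the acetyl-CoA carboxylase, stood at 1799, 801 and 925 in control and at 4239, 7452 and 1752 in the others. The groups overlapped, since control replicate 1 exceeded Che-1 silencing replicate 3. Acaca rose by 1.79 on the spike-in scale (SE 0.58, limma adjusted p = 0.00564), and its relative difference was 0.26 (SE 0.25).

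Fasn, the fatty acid synthase, stood at 3807, 1549 and 1808 normalized counts in control and at 10349, 17231 and 3131 in the silencing-labelled libraries. Control replicate 1 was above Che-1 silencing replicate 3, so the groups overlapped. The means were 2388 ± 1236 and 10237 ± 7051 (SD, n = 3 each), and Fasn rose by 1.90 on the spike-in scale (SE 0.59, limma adjusted p = 0.00371). The relative difference was 0.37 (SE 0.36, limma adjusted p = 0.457). By library Fasn deviated from the control mean by 0.76, 0.77 and -0.41 in Che-1 silencing replicates 1 to 3 and by 0.37 in control replicate 1. Without Che-1 silencing replicate 3 its relative difference was 0.77 (limma adjusted p = 0.0204).

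The stearoyl-CoA desaturases make oleate and palmitoleate. Scd1 had the highest level per kilobase of exon in the set, a mean of 1079 normalized counts per kilobase in control and 3123 in the silencing-labelled libraries. Its normalized counts were 7242, 4024 and 4569 in control and 16293, 21754 and 7781 in the others, apart by a small margin. Scd2 stood at 2392, 1417 and 1655 in control and at 5609, 8432 and 3190 in the others, also without overlap. Scd1 rose by 1.46 (SE 0.58, limma adjusted p = 0.0214) and Scd2 by 1.58 (SE 0.59, limma adjusted p = 0.0136) on the spike-in scale. Both lay near the typical gene, with relative differences of -0.07 and 0.05. Scd2 shares 623 bases with Scd1 at 95% identity or more, so reads there may not tell the pair apart.

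Elongases and the desaturases of polyunsaturated fatty acids had some of the lowest differences of the set. Elovl1 rose by 1.48 on the spike-in scale, with a relative difference of -0.05. Elovl5, an elongase of polyunsaturated chains, stood at 1166, 946 and 1025 normalized counts in control and at 1819, 3181 and 2370 in the silencing-labelled libraries. The groups were apart, yet its spike-in difference of 1.20 did not pass (SE 0.58, limma adjusted p = 0.0559). Elovl6, which extends palmitate, stood at 291, 134 and 162 in control and at 294, 627 and 342 in the others, and its difference of 1.10 did not pass (SE 0.53, limma adjusted p = 0.0558). Control replicate 1 and Che-1 silencing replicate 1 were nearly equal in Elovl6. Fads1, the delta-5 desaturase, stood at 845, 380 and 451 in control and at 1257, 2036 and 903 in the others, apart by a small margin. Fads2, the delta-6 desaturase, stood at 420, 148 and 146 in control and at 443, 905 and 270 in the others, with overlap. Fads1 rose by 1.33 (limma adjusted p = 0.0297) and Fads2 by 1.19 (limma adjusted p = 0.04). The 2 relative differences were -0.20 and -0.34. Without Che-1 silencing replicate 3, 3 of the 10 fatty acid genes were higher on the relative scale and 2 lower, near the 27.8% and 25.2% of all genes. Elovl5 at -0.63 (limma adjusted p = 0.0179) and Elovl6 at -0.62 (limma adjusted p = 0.0396) were the lower pair. The higher ones were Acly at 0.34 (limma adjusted p = 0.0174), Acaca at 0.52 (limma adjusted p = 0.0381) and Fasn at 0.77.

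**Figure D3:**
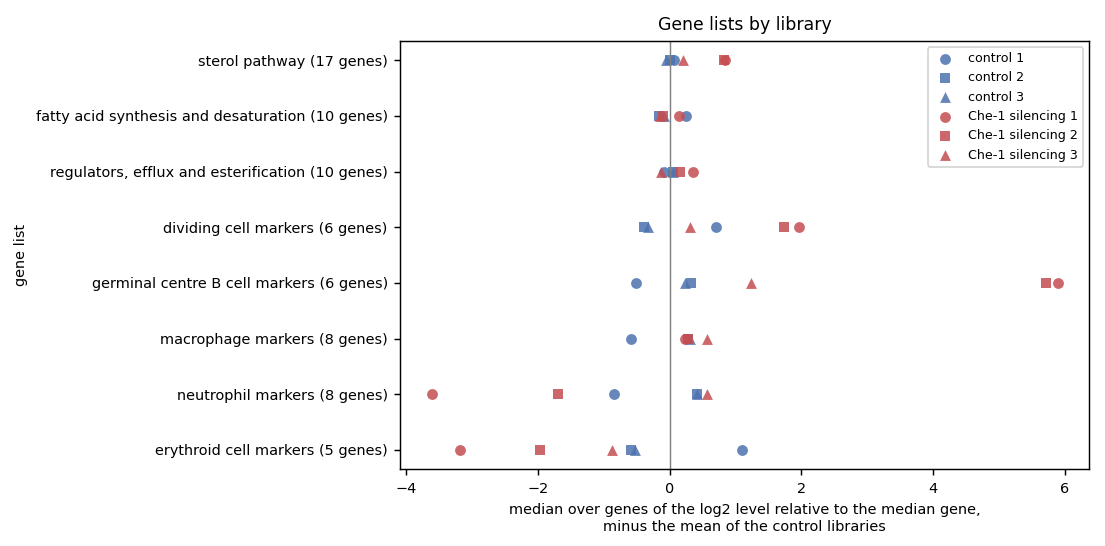
Median relative level of the 3 roles and of marker lists in each library, in log2 units minus the mean of the 3 control libraries. The sterol genes stood at 0.84, 0.83 and 0.21 in Che-1 silencing replicates 1 to 3, the fatty acid genes at 0.15, -0.10 and -0.14, and dividing cell markers at 1.96, 1.74 and 0.31.

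With all libraries, the SREBP genes themselves lay near the typical gene. Srebf1 stood at 1277, 697 and 840 normalized counts in control and at 3314, 5104 and 1387 in the silencing-labelled libraries. It rose by 1.66 on the spike-in scale (SE 0.58, limma adjusted p = 0.00938), with a relative difference of 0.13 (SE 0.20). Srebf2, which codes for the SREBP with the stronger tie to sterol genes, stood at 2967, 1436 and 1618 in control and at 6612, 8398 and 2306 in the others. Control replicate 1 exceeded Che-1 silencing replicate 3, so the groups overlapped. Srebf2 rose by 1.40 on the spike-in scale (SE 0.59, limma adjusted p = 0.0273), and the relative difference was -0.13 (SE 0.26). In Che-1 silencing replicates 1 to 3, Srebf1 deviated by 0.40, 0.29 and -0.31 and Srebf2 by 0.33, -0.06 and -0.65. Without replicate 3 of that label, the relative difference of Srebf1 was 0.35 (limma adjusted p = 0.0288), beside 27.8% of all genes called higher. That of Srebf2 was 0.14 (limma adjusted p = 0.515).

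The escort and the retention proteins differed in sign on the relative scale. Scap stood at 1377, 730 and 856 normalized counts in control and at 2287, 3208 and 1419 in the silencing-labelled libraries, and its spike-in difference of 1.20 did not pass (SE 0.58, limma adjusted p = 0.0554). Its relative difference was -0.33 (SE 0.12, limma adjusted p = 0.119), and Scap lay below all controls, as 19.7% of all genes did, in all 3 silencing-labelled libraries, at -0.21, -0.45 and -0.35 from the control mean. Insig1, itself a target of the SREBPs, stood at 580, 480 and 539 in control and at 2148, 3047 and 1010 in the others. Insig2 stood at 283, 202 and 187 in control and at 864, 1481 and 487 in the others. Insig1 rose by 1.82 (SE 0.57, limma adjusted p = 0.00421) and Insig2 by 1.95 (SE 0.54, limma adjusted p = 0.00158) on the spike-in scale, both without overlap. Their relative differences were 0.29 (SE 0.20) and 0.42 (SE 0.16, limma adjusted p = 0.126).

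The liver X receptor genes had unlike values. Nr1h3, the receptor expressed in macrophages, liver and fat, stood at 364, 316 and 389 normalized counts in control and at 1793, 3124 and 1774 in the silencing-labelled libraries. The groups were far apart, and replicates 1 and 3 of the silencing label were nearly equal. The means were 356 ± 37.3 and 2230 ± 774 (SD, n = 3 each), and Nr1h3 rose by 2.59 on the spike-in scale (SE 0.56, limma adjusted p = 8.52e-05). Its relative difference was 1.06 (SE 0.23, limma adjusted p = 0.0731), the lowest adjusted p on that scale among the 37 genes. By library it deviated by 0.86, 0.93 and 1.40 in Che-1 silencing replicates 1 to 3, so replicate 3 was the highest here and the lowest in most sterol genes. The other receptor gene, Nr1h2, ran from 513 to 925 in control and from 1039 to 2989 in the others and rose by 1.48, with a relative difference of -0.05.

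Export and storage genes had smaller relative differences than Nr1h3, and the contrast between them was not tested. Abca1, the pump that loads cholesterol onto apolipoprotein A-I, stood at 4530, 3061 and 3547 normalized counts in control and at 14602, 23466 and 5514 in the silencing-labelled libraries. It rose by 1.75 on the spike-in scale (SE 0.58, limma adjusted p = 0.00658), with a relative difference of 0.22 (SE 0.25). Abcg1, which exports sterol to high-density lipoprotein, stood at 1468, 1324 and 1471 in control and at 2535, 3942 and 3777 in the others. The groups were apart in both genes, with Abca1 lowest and Abcg1 near its highest in Che-1 silencing replicate 3. Abcg1 rose by 1.24 (SE 0.58, limma adjusted p = 0.0496), and its relative difference was -0.29 (SE 0.36). By library Abcg1 deviated by -0.63, -0.73 and 0.49 in Che-1 silencing replicates 1 to 3, while Abca1 deviated by 0.52, 0.48 and -0.33. The pair thus deviated with opposite signs in each of the 3 silencing-labelled libraries. In control replicates 1 to 3 the signs were alike, at -0.12, 0.03 and 0.08 for Abca1 and -0.37, 0.19 and 0.18 for Abcg1. Without replicate 3 of the silencing label, the relative difference was 0.50 for Abca1 (limma adjusted p = 0.0104) and -0.68 for Abcg1 (limma adjusted p = 0.0319). Soat1, which esterifies cholesterol for storage, stood at 1444, 1048 and 1235 in control and at 3621, 5791 and 2815 in the others, without overlap. Soat1 rose by 1.66 (SE 0.58, limma adjusted p = 0.00969), with a relative difference of 0.13. Macrophage markers had a median relative deviation of 0.23, 0.28 and 0.57 in Che-1 silencing replicates 1 to 3 and -0.58, 0.28 and 0.31 in the controls. Single markers went different ways, with C1qa at 1.71, 1.47 and 1.41 in Che-1 silencing replicates 1 to 3 and Emr1 at -2.61, -1.74 and 0.46. Marco stood at -2.27, -1.46 and 1.59. Without replicate 3 of the silencing label, 3 of the 8 were higher and 3 lower, beside 27.8% and 25.2% of all genes. Their summed level was 13062 to 16823 normalized counts in control and 43882 to 92717 in the others, and their part in the values of Nr1h3 and Abcg1 was not tested.

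**Figure D4:**
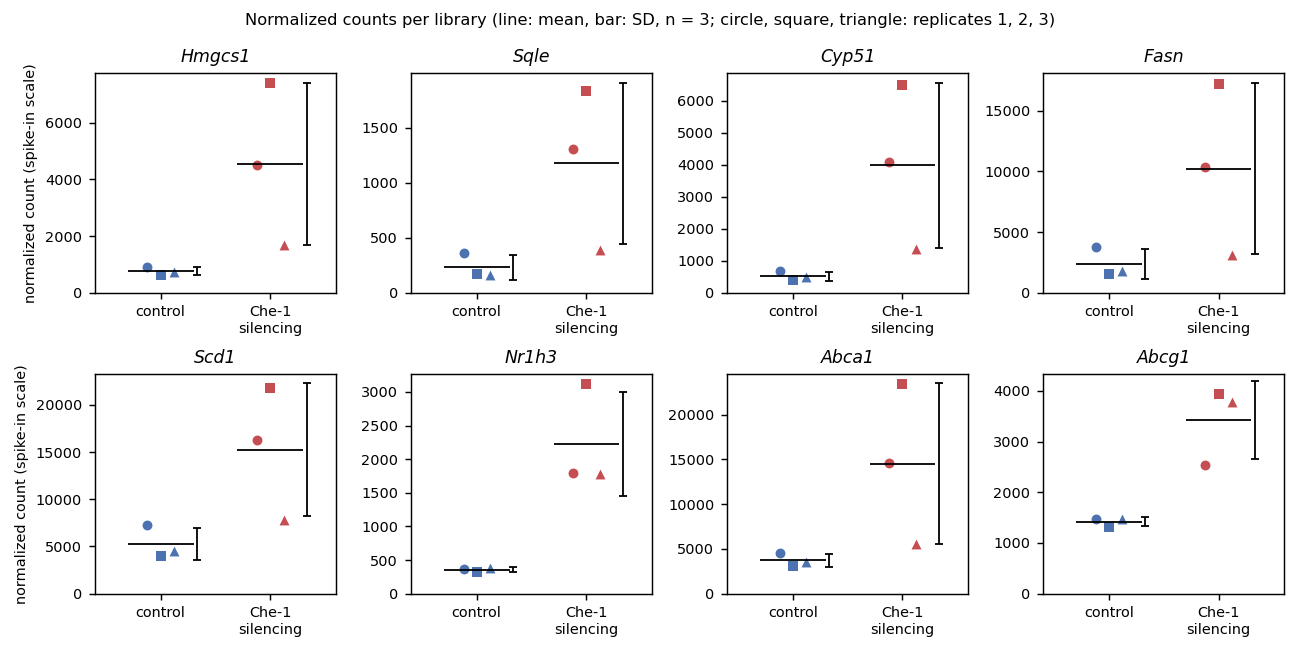
Normalized counts, on linear axes from 0, of Hmgcs1, Sqle, Cyp51, Fasn, Scd1, Nr1h3, Abca1 and Abcg1 in each of the 3 control libraries and the 3 silencing-labelled libraries, with each group mean as a line and its SD as a bar. In Cyp51 the lowest silencing library, at 1359, lies above the highest control, at 675, whereas in Fasn control replicate 1, at 3807, lies above Che-1 silencing replicate 3, at 3131.

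Neighbouring genes were counted on 4 further lists, whose counts stand beside the 66.7% of all tested genes that rose and the 0.746% that fell on the spike-in scale. Of 12 genes of the prenyl, dolichol and ubiquinone branches, which also start from farnesyl diphosphate, 11 rose on the spike-in scale, and the median relative difference was 0.03. The farnesyltransferase subunit gene Fnta had a relative difference of 0.78 (SE 0.29). Its partner Fntb had one of -0.24 (SE 0.34). The lowest p of this list in each direction was that of Pggt1b and Coq2. Their relative differences were 0.49 (SE 0.12, limma adjusted p = 0.0752) and -0.37 (SE 0.16, limma adjusted p = 0.153). Of 11 genes of SREBP cleavage and sterol-regulated protein degradation, 10 rose, with a median relative difference of 0.12. Fbxw7, the ubiquitin ligase subunit that marks nuclear SREBPs for degradation, stood at 1249, 918 and 1023 normalized counts in control and at 6800, 12290 and 2749 in the others. It rose by 2.54 (limma adjusted p = 0.000199), with a relative difference of 1.01 (SE 0.25, limma adjusted p = 0.0776). Mylip, the ligase that degrades lipoprotein receptors and is a target of the liver X receptors, had a spike-in difference of 0.82 that did not pass (limma adjusted p = 0.199) and a relative difference of -0.71 (SE 0.22).

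Of 23 tested genes of fatty acid precursors, activation and the elongation cycle, 16 rose and 1 gene fell per spike-in RNA. These counts stand beside 66.7% and 0.746% of all genes, and the median relative difference was 0.01. Thrsp, a lipogenic gene of liver and fat, was the gene that fell, at 16.4, 29.1 and 28.5 normalized counts in control and 0, 9.6 and 14.1 in the others, with a difference of -2.20 (limma adjusted p = 0.0126). Acss2, the cytosolic synthetase that makes acetyl-CoA from acetate and a known SREBP target, stood at 378, 185 and 217 in control and at 199, 420 and 344 in the others. The groups overlapped, its spike-in difference of 0.30 did not pass (limma adjusted p = 0.609), and its relative difference was -1.23 (SE 0.35, limma adjusted p = 0.0869). Hsd17b12, the ketoreductase of the elongation cycle, rose by 2.19 (limma adjusted p = 0.000841), with a relative difference of 0.66 (SE 0.12). Of 14 genes of sterol transport, storage and receptor partners, 11 rose, beside 66.7% of all genes, with a median relative difference of -0.04. The triglyceride synthases Dgat1 and Dgat2 are on this list. Dgat2 stood at 101, 92.1 and 99.7 normalized counts in control and at 572, 730 and 293 in the others, and rose by 2.34 (limma adjusted p = 0.000157). The spike-in difference of Dgat1, 1.03, did not pass (limma adjusted p = 0.0768). Their relative differences were 0.81 (SE 0.24) and -0.50 (SE 0.14).

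Some counts may mix genes. Exons on the opposite strand overlap Hmgcs1, Idi1, Fdft1, Lss, Cyp51, Elovl1, Srebf1 and Scap, and same-strand exons overlap Fdps, Tm7sf2, Scd2 and Srebf1, in the GENCODE annotation. Near-identical stretches of 300 bases or more are shared by Idi1, Fdft1, Acaca and Elovl6 with other genes or copies, and by Acat2 with Tcp1, beside the pairs named above. Library preparation was stranded, per the labels' protocols, but the strand setting of the counting is not stated in those sources.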

How the data were processed

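Total RNA of bone marrow had been made into stranded, ribosome-depleted libraries, per the labels' protocols. The submitters' processing notes name build mm9 and the tools HTSeq, TopHat, Cufflinks and Cuffdiff, without versions. The authors deposited raw counts of 92 spike-ins per library, with 5 summary rows that name no spike-in and held 0.0434% to 0.2208% of that table's reads. They also deposited a gene table whose signal is gene counts divided by size factors, as a mean per group. Per the file headers it also holds the ratio (fold) of the means with its log2 value, and p-values with and without adjustment.

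Counts per library were solved from those means and from size factors over 72 rows of the spike-in table, 2 of them summary rows. This gave whole counts for 17076 of 17173 genes (99.4%). The 97 others, with 18.3% and 17.3% of the summed control and Che-1 silencing means, were left out, and all 37 members were recovered. The recovered counts were divided by the size factors again. The planned design assumed values per library.

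limma 3.58.1 in R 4.3.3 (eBayes with trend) was run on log2(normalized count + 1) for 14604 genes with a mean of at least 10, with Benjamini-Hochberg adjustment over all of them and a threshold of 0.05. The prior degrees of freedom were infinite on the spike-in scale and 2.42 on the relative scale. Differences understate the change of low genes. edgeR 4.0.16 and DESeq2 1.42.0 on the recovered counts, other pseudocounts, minimum means, scalings, each library left out, a replicate block and control replicates 2 and 3 averaged were alternatives. The fit and the recovery were tested on simulated data. Exon lengths and overlaps came from GENCODE M21 (GRCm38) and promoters from RefSeq, neither of which is the build the authors counted on. In 36 of 41 windows the bases after the start lay in a GENCODE transcript.

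The members and all lists were chosen with earlier results of these data known. Values in all libraries are given for up to 6 members of each role with the lowest p on the relative scale, up to 3 with the lowest spike-in difference, and 12 key genes whatever their p. In each neighbour list the rule took up to 3 genes with the lowest p in each direction, and those most telling of their step are printed.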

Additional observations from a re-analysis of the deposited data

How the results depend on the processing

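The calls on the spike-in scale depended on the shared spread and on single libraries. Main counts of 9745 rises over all genes, with 17 sterol, 8 fatty acid and 9 regulator genes among them, became 0 in all, 0, 0 and 0 with each gene's own variance, and 3451 with 12, 0 and 2 when control replicates 2 and 3 were averaged into 1. Leaving out each library gave 3223 to 11012 rises, with 11 to 17 sterol, 0 to 10 fatty acid and 2 to 10 regulator genes. The 109 falls became 4 with own variances, 52 at a minimum mean of 50, 55 with the averaged controls, 53 in DESeq2 and 25 to 234 with a library left out.

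On the relative scale 0 genes were higher and 4 lower in the main fit. These counts became 13 and 11 with own variances, 11 and 12 with no minimum mean, and 2189 and 1777 in DESeq2, which called 9 sterol genes higher and 1 regulator in each direction. A pseudocount of 0.1 gave 1 higher. With each library left out, 0 to 4046 genes were higher, with 0 to 14 sterol, 0 to 3 fatty acid and 0 to 4 regulator genes. Between 4 and 3666 were lower, with 0 to 2 fatty acid and 0 to 1 regulator genes. The highest counts came without Che-1 silencing replicate 3. The median relative difference ran from 0.42 to 0.88 for sterol genes, -0.15 to 0.02 for fatty acid genes and 0.03 to 0.24 for regulators. The cause was not tested.

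Replicate numbers were not treated as pairs in the main fit, and the sources used here do not settle whether they are. Deviations of same-numbered libraries correlated at 0.167, -0.151 and 0.182, and those of differently numbered ones at -0.206 to 0.184. Deviations sum to 0 within each group, so these correlations constrain each other and cannot decide about pairing. A replicate block gave 6719 rises, with 15 sterol, 3 fatty acid and 4 regulator genes, 83 falls, and 0 higher and 5 lower on the relative scale.

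Relative differences near 0 changed sign. Over the libraries left out in turn, Tm7sf2 ran from -0.16 to 0.20, Hsd17b7 from -0.21 to 0.11, Scd1 from -0.21 to 0.05, Scd2 from -0.01 to 0.12, Elovl1 from -0.14 to 0.08, Srebf1 from -0.01 to 0.35, Srebf2 from -0.35 to 0.14, Nr1h2 from -0.13 to 0.06 and Ebp from -0.06 to 0.24. Tm7sf2 also came to 0.06, Elovl1 to 0.02 and Nr1h2 to 0.02 with no minimum mean, and Tm7sf2 to 0.04 with averaged controls and 0.01 in edgeR. Depth limits Tm7sf2 most, with 45 reads in its shallowest library.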
